A study of Brachypodium distachyon with 6 samples.

Results

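Phosphofructokinase, phosphoglycerate mutase and pyruvate kinase catalyse steps of glycolysis, and 9 genes of these enzymes were followed in roots of *B. distachyon* after the shoots had been pruned. They are 9 of the 19538 genes in the deposited table. The genes were taken by identifier from the study's gene ontology (GO) term lists, 8 of them from the term glycolytic process and 1 from phosphoglycerate mutase activity. Those lists hold genes that the study had already selected as different between pruned and intact roots in the same libraries. A difference of each gene between pruned and intact roots is therefore what selected it, and the values below describe that difference. The lists hold genes of both directions. The study had already reported glycolysis genes as down-regulated, so the shared direction of the 9 genes is no separate result. No p-value is given for these genes, and a count of them past a threshold is what the selection made it.

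The samples were roots of the inbred line Bd21, a reference line of this model grass, and all 6 libraries came from the same tissue and line. Pruned roots came from seedlings of 2 weeks whose shoots were cut with scissors so that a stub remained, and they were collected 2 days after the cutting. Intact roots came from uncut seedlings of the same boxes, collected at the same time. Both groups grew on agar with diluted Murashige and Skoog salts and added sucrose, and each group had 3 biological replicates. How many seedlings were pooled for a library is not given in the sources used here. The label root was not checked against marker genes, since the identifiers were not paired with names beyond the study's own lists.

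Glycolysis splits hexose phosphates from sucrose or starch into pyruvate in the cytosol and yields ATP and NADH. In sink organs such as roots, it is fed by sucrose that arrives from the leaves. Phosphofructokinase commits fructose 6-phosphate to the pathway, and plants have a second cytosolic enzyme for this reaction, which uses pyrophosphate in place of ATP and also works in the reverse direction. Phosphoglycerate mutase moves the phosphate group within phosphoglycerate, and pyruvate kinase makes pyruvate and ATP from phosphoenolpyruvate.

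All 9 genes had lower normalised read counts in each of the 3 pruned libraries than in any of the 3 intact libraries. Values are reads of a gene per 1000000 counted reads of its library (RPM), with the SD over 3 libraries per group. The log2 fold changes of pruned over intact roots, fitted on log2(RPM + 0.5), lay between -1.70 and -0.65 with a median of -0.95, while the median over all genes was 0.04. With limma and Benjamini-Hochberg adjustment over all genes, 9 of 9 genes were called lower at an adjusted p of at most 0.05, as were 20.2% of all genes. At least 2-fold lower were 3 of the 9 genes, and 1.72% of all genes. Pruned libraries lay entirely below intact ones for 22.7% of all genes. Because the selection used this contrast, the counts of the 9 genes were set by it, and nothing can be read from them beside these shares.

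RPM are relative to the other transcripts of a library, and in whole roots fewer cells of a type and less RNA per cell cannot be told apart. Values of different genes were not compared as levels, since gene lengths were not used here. Library totals were 17278649 to 28420464 reads in pruned roots and 18150223 to 21292543 reads in intact roots, and between 3.95% and 4.35% of these reads fell on the top 10 genes. The 9 genes together had 36893 to 63335 reads per library in pruned roots and 75459 to 90265 reads per library in intact roots. Pruned replicates 2 and 3 rest on the first read of each pair only, the other 4 libraries on both reads, so pruned replicate 1 is the only pruned library of the same layout as the intact ones. In pruned replicate 1, all 9 genes were below all intact libraries, as already stated for each pruned library. The selection used this library too, so this is no separate check of the layout.

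**Figure D1:**
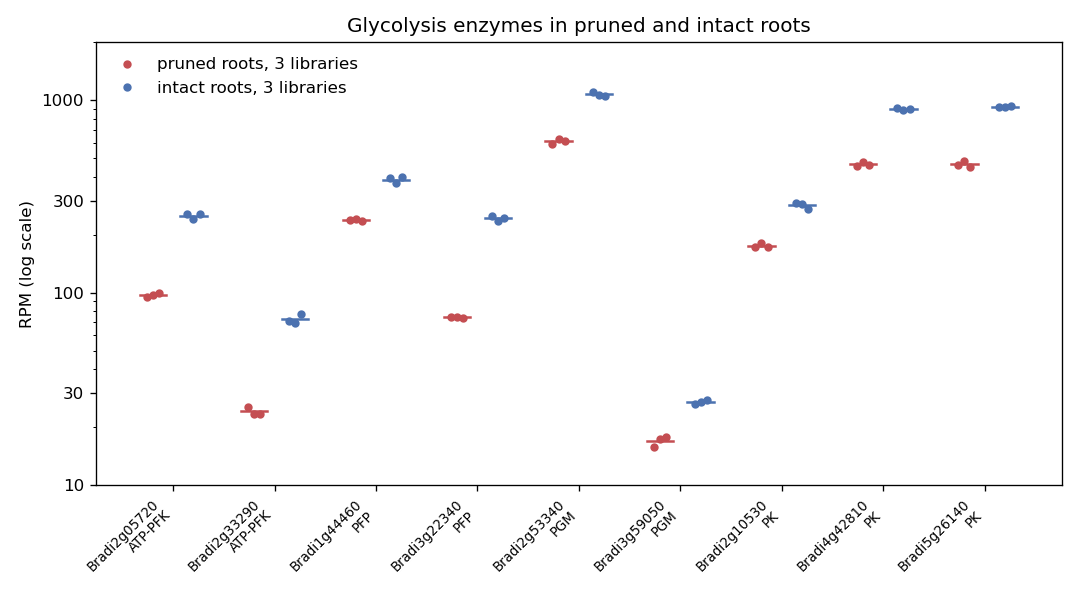
RPM of the 9 glycolysis genes on a log axis, with 1 point per library (3 pruned, 3 intact) and a line at the mean of each group. For each gene the 3 pruned points lie below the 3 intact points, with the widest distance for Bradi3g22340 (3.27-fold) and the narrowest for Bradi3g59050 (1.59-fold).

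The ATP-dependent phosphofructokinases were the step with the lowest ratio of pooled values. Both of its listed genes, on chromosome 2, carry the name ATP-dependent 6-phosphofructokinase 6. Bradi2g05720 had 94.7, 97.6 and 100.2 RPM in pruned replicates 1, 2 and 3, against 257, 241 and 255 RPM in intact replicates 1, 2 and 3. The pruned libraries were thus close together, and the highest of them was 140.7 RPM below the lowest intact library. The mean was 97.5 ± 2.73 RPM in pruned roots and 251 ± 8.87 RPM in intact roots, which is 2.57-fold lower, with a log2 fold change of -1.36 (SE 0.05). Among all genes, 0.896% had a lower log2 fold change.

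Bradi2g33290 had 25.5, 23.5 and 23.4 RPM in the pruned libraries, against 71.2, 69.3 and 77.9 RPM in the intact libraries. Its highest values were in pruned replicate 1 among pruned roots and in intact replicate 3 among intact roots, and the groups did not overlap. The mean was 24.1 ± 1.20 RPM in pruned roots and 72.8 ± 4.49 RPM in intact roots, 3.02-fold lower, with a log2 fold change of -1.57 (SE 0.06). With read layout as a term, where the pruned value rests on pruned replicate 1 alone, the log2 fold change was -1.49.

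Both genes of the pyrophosphate-dependent enzyme were identified by the GO term for diphosphate-dependent phosphotransfer to fructose 6-phosphate, and no name was paired with them. Bradi3g22340, on chromosome 3, had the largest difference of the 9 genes. It had 74.5, 75.2 and 74.1 RPM in the pruned libraries, against 250.4, 236 and 246 RPM in the intact libraries. The pruned libraries spanned about 1 RPM, and each intact library stood far above them. The mean was 74.6 ± 0.554 RPM in pruned roots and 244 ± 7.15 RPM in intact roots, 3.27-fold lower, with a log2 fold change of -1.70 (SE 0.04). Among all genes, 0.466% had a lower one.

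Bradi1g44460, on chromosome 1, had a much smaller difference than its partner. It had 238.7, 240.6 and 237 RPM in the pruned libraries, against 394, 369.9 and 398 RPM in the intact libraries. The lowest intact library was intact replicate 2, still above all pruned ones. The mean was 239 ± 1.83 RPM in pruned roots and 387 ± 15.2 RPM in intact roots, 1.62-fold lower, with a log2 fold change of -0.70 (SE 0.04). The study also lists this gene under response to hormone.

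Phosphoglycerate mutase occurs in unrelated forms, 1 of which needs bisphosphoglycerate as a cofactor and 1 of which does not. In plants the independent form is the glycolytic enzyme of the cytosol. Bradi2g53340, on chromosome 2 and named as the independent form, had 593, 629.6 and 615.5 RPM in the pruned libraries, against 1107, 1067 and 1056 RPM in the intact libraries. The highest pruned library was 426 RPM below the lowest intact library. The mean was 613 ± 18.2 RPM in pruned roots and 1077 ± 26.6 RPM in intact roots, 1.76-fold lower, with a log2 fold change of -0.81 (SE 0.04). With read layout as a term it was -0.86.

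Bradi3g59050, on chromosome 3 and named as a phosphoglycerate mutase-like protein of the dependent form, had 15.9, 17.3 and 17.8 RPM in the pruned libraries, against 26.4, 27.0 and 27.5 RPM in the intact libraries. It rested on 274 to 493 reads per pruned library and 500 to 562 reads per intact library, the fewest of the 9 genes, and its groups did not overlap. The mean was 17.0 ± 1.00 RPM in pruned roots and 27.0 ± 0.578 RPM in intact roots. It was 1.59-fold lower, with a log2 fold change of -0.65 (SE 0.07), the smallest difference of the 9 genes. Pruned replicate 1 had the lowest value, and with read layout as a term the log2 fold change was -0.75.

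The 3 pyruvate kinase genes are all named as cytosolic isozymes, and they differed less between the groups than the ATP-dependent phosphofructokinases. Bradi5g26140, on chromosome 5, had 462, 484 and 452 RPM in the pruned libraries, against 925, 925 and 929 RPM in the intact libraries. The intact libraries were almost level, and all pruned libraries lay far below them. The mean was 466 ± 16.4 RPM in pruned roots and 926 ± 2.59 RPM in intact roots, 1.99-fold lower, with a log2 fold change of -0.99 (SE 0.04). The value lies at the edge of the 2-fold threshold, and with median-ratio scaling, with edgeR or with DESeq2 the log2 fold change was -1.04.

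Bradi4g42810, on chromosome 4 and named pyruvate kinase 1, had 457, 479 and 459.9 RPM in the pruned libraries, against 916, 886 and 897 RPM in the intact libraries. All pruned values were below all intact ones. The mean was 465 ± 12.0 RPM in pruned roots and 899.7 ± 15.1 RPM in intact roots, 1.93-fold lower, with a log2 fold change of -0.95 (SE 0.04). Bradi2g10530, on chromosome 2, had 173.5, 181.7 and 172 RPM in the pruned libraries, against 292, 289.99 and 271 RPM in the intact libraries. Its lowest intact value was in intact replicate 3, still well above the pruned ones. The mean was 176 ± 5.22 RPM in pruned roots and 284 ± 11.5 RPM in intact roots, 1.62-fold lower, with a log2 fold change of -0.69 (SE 0.04).

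The pooled RPM of a step is the sum over its listed genes, and it holds none of the step's other genes. Gene lengths were not taken into account in these sums. The order of the step ratios, and the share of a step in a larger sum, could differ with lengths. The 2 ATP-dependent phosphofructokinase genes summed to 122 ± 1.74 RPM in pruned roots and 324 ± 12.1 RPM in intact roots, a ratio of 0.376. The 2 pyrophosphate-dependent genes summed to 313 ± 2.38 RPM in pruned roots and 632 ± 21.9 RPM in intact roots, a ratio of 0.496. Both kinds together, which act on fructose 6-phosphate at the entry of the pathway, had 435 ± 1.75 RPM in pruned roots and 956 ± 33.8 RPM in intact roots.

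Pooled ratios nearer to 1 were found for the later steps, but this order did not hold for each gene. Bradi1g44460, of an early step, had a ratio of 0.616. Of the genes of later steps, Bradi2g53340 (0.569), Bradi4g42810 (0.517) and Bradi5g26140 (0.503) were further from 1. Bradi3g59050 (0.629) and Bradi2g10530 (0.618) were nearer to 1. Phosphoglycerate mutase summed to 629.8 ± 19.1 RPM in pruned roots and 1104 ± 26.1 RPM in intact roots, a ratio of 0.571. Pyruvate kinase summed to 1107 ± 33.0 RPM in pruned roots and 2110.3 ± 19.6 RPM in intact roots, a ratio of 0.525. The pooled ratios thus ran from 0.376 to 0.571 over the 4 steps, and the pooled values of no step overlapped between the groups. Each of the summed genes was lower in every pruned library, so the sums could not overlap.

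All 9 genes together had 2172 ± 49.8 RPM in pruned roots and 4169 ± 64.7 RPM in intact roots, 1.92-fold lower. This was 0.217% of the counted reads in pruned roots and 0.417% in intact roots. Of this sum, ATP-dependent phosphofructokinase made up 5.60% in pruned roots and 7.77% in intact roots, and phosphoglycerate mutase 29.0% in pruned roots and 26.5% in intact roots, in both cases without overlap. Pyruvate kinase made up 51.0% in pruned roots and 50.6% in intact roots, and there the libraries overlapped.

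**Figure D2:**
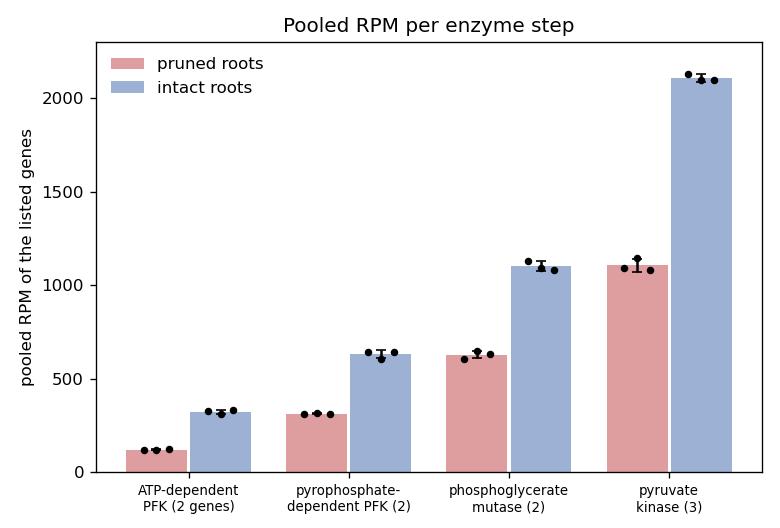
Pooled RPM of the listed genes of each enzyme step. Bars are means, points are libraries and error bars are the SD over 3 libraries, with pruned roots left of intact roots. The pruned bar is lower at all 4 steps, with ratios of 0.376, 0.496, 0.571 and 0.525 in the order of the axis.

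The share of each gene in the pooled RPM of its step shows where genes of 1 step differed unequally. Gene length was not taken into account. In the steps of 2 genes it cannot turn the direction in which a share differs between the groups, and among the 3 pyruvate kinases this holds only for the genes with the highest and the lowest ratio, Bradi2g10530 and Bradi5g26140. The pyrophosphate-dependent pair stood apart in size. No name was paired with either of its genes, so whether they are isoforms or different subunits of the enzyme was not determined. Bradi1g44460 made up 76.2% of the pair in each of the 3 pruned libraries, against 61.2%, 61.0% and 61.8% in the intact libraries. The mean difference was 14.9 percentage points, while the SD was 0.0207 points in pruned roots and 0.422 points in intact roots. Put as a ratio, Bradi1g44460 had 3.20 ± 0.00366 reads for each read of Bradi3g22340 in pruned roots, against 1.59 ± 0.0284 in intact roots.

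In the ATP-dependent pair, Bradi2g05720 made up 78.8%, 80.6% and 81.1% in the pruned libraries, against 78.3%, 77.7% and 76.6% in the intact libraries. The groups did not overlap, but pruned replicate 1, the paired-end library, lay within 1 percentage point of intact replicate 1. The mean difference was 2.62 points. It was 1.25 points with pruned replicate 1 alone, an alternative added after seeing the data, and 3.31 points without that library. With read layout as a term the log2 fold changes of Bradi2g05720 and Bradi2g33290 were -1.40 and -1.49, closer to each other than the -1.36 and -1.57 of all libraries. The ATP-dependent pair made up 27.7%, 27.7% and 28.4% of both phosphofructokinase kinds in the pruned libraries. In the intact libraries it was 33.7%, 33.8% and 34.1%, a mean difference of -5.93 points. With gene lengths taken into account, this difference could have another size or direction.

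Among the pyruvate kinases, Bradi2g10530 made up 15.9% in all 3 pruned libraries, against 13.7%, 13.8% and 12.9% in the intact libraries, a mean difference of 2.40 points. Bradi5g26140 made up 42.1% in pruned roots and 43.9% in intact roots, without overlap. Bradi4g42810 made up 42.0% in pruned roots and 42.6% in intact roots, and its libraries overlapped. The ratio of Bradi4g42810 to Bradi5g26140 was 0.999 ± 0.0164 in pruned roots and 0.971 ± 0.0169 in intact roots, also with overlap. Within phosphoglycerate mutase, Bradi3g59050 made up 2.60%, 2.68% and 2.80% in the pruned libraries, against 2.33%, 2.47% and 2.54% in the intact libraries. The groups did not overlap, and the mean difference was 0.249 points, or 0.155 points with pruned replicate 1 alone.

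**Figure D3:**
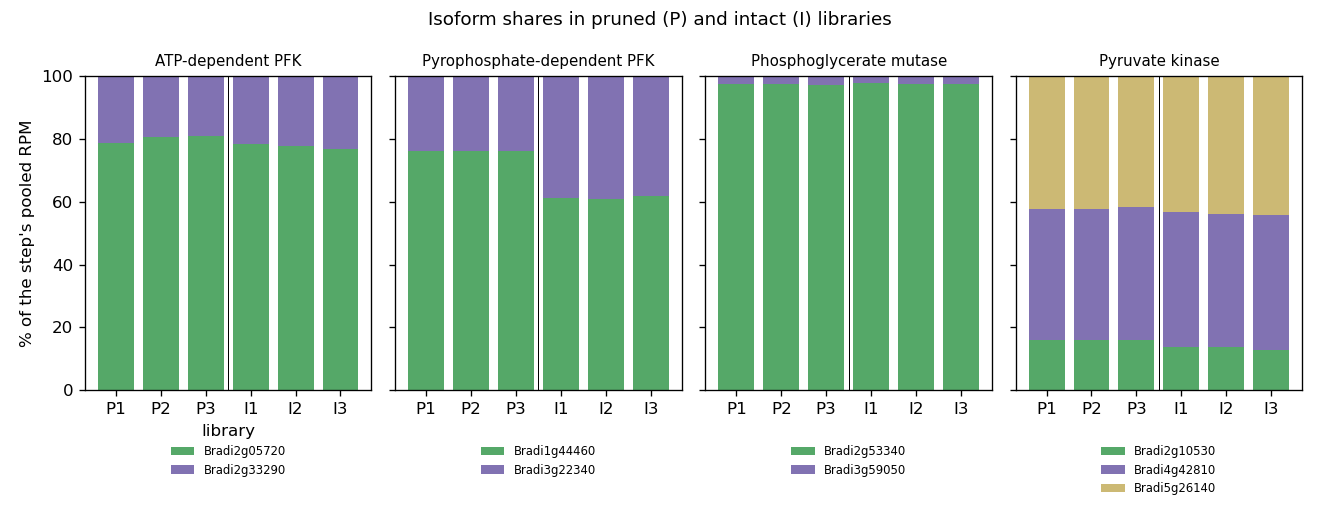
Share of each listed gene in the pooled RPM of its enzyme step, in percent, for pruned libraries P1 to P3 and intact libraries I1 to I3. In the pyrophosphate-dependent pair Bradi1g44460 takes 76.2% in pruned roots and 61.3% in intact roots, while the other steps differ by less than 3 percentage points.

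Replicates of a group lay close together for all 9 genes. The coefficient of variation was 0.743% to 5.89% in pruned roots and 0.280% to 6.16% in intact roots. Of the 9 genes, 2 in each group varied less than the count of reads alone would give on average. In pruned roots these were Bradi3g22340 (0.743%, with 2.40% from counting) and Bradi1g44460 (0.768%, with 1.34% from counting). In intact roots these were Bradi5g26140 (0.280%, with 0.747% from counting) and Bradi3g59050 (2.14%, with 4.38% from counting). Counting error covers the sampling of reads only.

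The small differences between replicates were shared by several of the genes. Pruned replicate 2 had the highest value of its group for 6 of the 9 genes and the lowest for 0, while the lowest was in pruned replicate 3 for 5 genes and in pruned replicate 1 for 4. Intact replicate 2 had the lowest value of its group for 6 of the 9 genes and the highest for 0. These genes share their libraries, so the pattern describes 6 libraries and not 9 separate cases.

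A larger part of all genes was called lower where genes had more reads, so the shares were also taken over well-read genes. Of the 8411 genes with a mean RPM of at least that of Bradi3g59050, 26.2% were called lower and 1.96% were called and at least 2-fold lower. Of the 2106 genes with a mean of at least 100 RPM, where 7 of the 9 genes lie, the values were 35.7% and 3.85%. The lowest 5% of log2 fold changes over all genes began at -0.57 and the lowest 1% at -1.30. All 9 genes lay below the first of these values, and Bradi2g05720, Bradi2g33290 and Bradi3g22340 lay below the other as well. The study names a threshold of 1.5-fold in its methods and of 2-fold in its results, and 6 of the 9 genes are less than 2-fold lower by the ratio of means. The gene closest to 1.5-fold was Bradi3g59050 at 1.59-fold. Of all genes, 5.63% were at least 1.5-fold lower by the ratio of means.

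**Figure D4:**
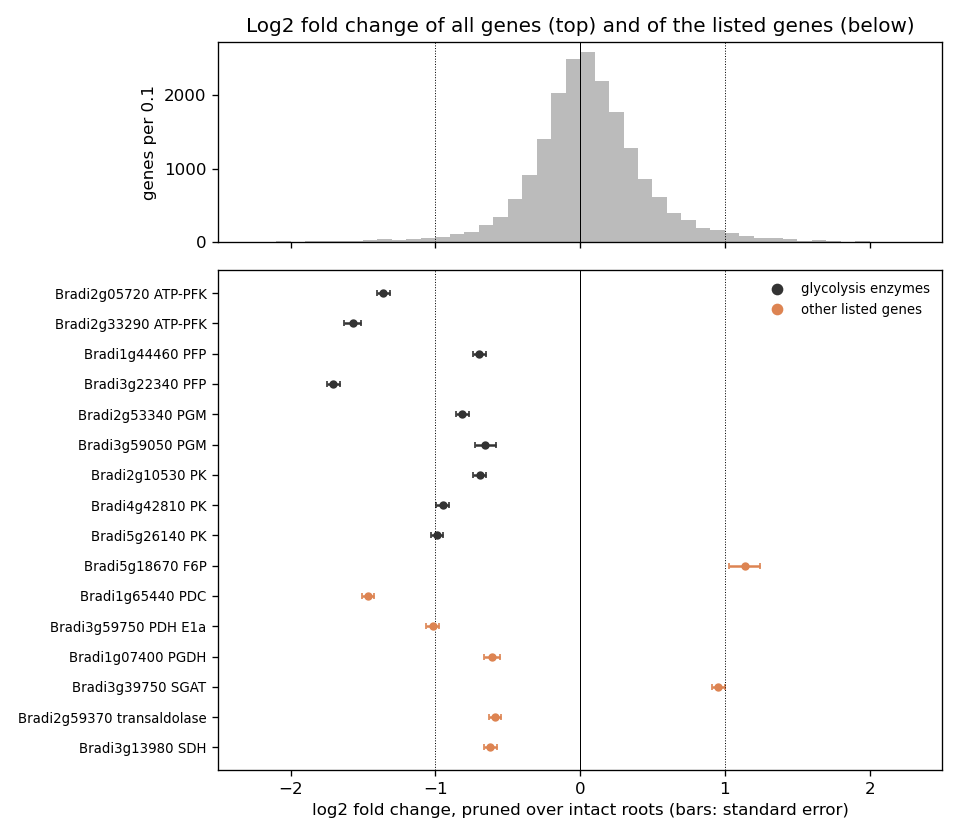
Log2 fold change of pruned over intact roots, as a histogram over 19538 genes (top) and for the 9 glycolysis genes and 7 other listed genes (below), with bars for the standard error and dotted lines at 2-fold. The 9 glycolysis genes lie between -1.70 and -0.65, and 2 of the 7 other genes lie above 0.

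Other genes of central carbon metabolism were available only from the study's own lists, so they too had been selected on this contrast, and no p-value is given for them. Pathway genes outside those lists were not analysed here, which leaves hexokinase, aldolase, glyceraldehyde 3-phosphate dehydrogenase, enolase and any further phosphofructokinase or pyruvate kinase undescribed. The study's KEGG list of glycolysis holds the 9 genes and 2 named as acting on pyruvate, and all 11 were lower. Their log2 fold changes had a median of -0.99, beside 0.04 over all genes. By the same rules as above, 11 of 11 were called lower (20.2% of all genes) and 5 were called and at least 2-fold lower (1.72% of all genes), counts that the selection set. Names were assigned to the identifiers by pathway, chromosome and GO term, because the study's list does not keep them in 1 order.

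Both genes that take pyruvate onward were lower. Bradi1g65440 was assigned the name pyruvate decarboxylase 2, an enzyme at the entry of ethanol fermentation. It had 554, 535 and 535 RPM in the pruned libraries, against 1508, 1463 and 1515 RPM in the intact libraries, 2.76-fold lower. The study also prints that name beside another identifier, Bradi3g13370. That gene was higher, with 6.14 ± 0.169 RPM in pruned roots and 2.88 ± 0.218 RPM in intact roots. The name of either gene is therefore uncertain, and so is the direction in which pyruvate decarboxylase 2 differed. Bradi3g59750, named as the alpha subunit of the mitochondrial pyruvate dehydrogenase, which feeds the citrate cycle, had 129.7 ± 2.03 RPM in pruned roots and 263 ± 13.3 RPM in intact roots, 2.03-fold lower.

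Bradi5g18670, listed with the phosphofructokinases under fructose 6-phosphate metabolic process but under no kinase term, went the other way. It had 29.7, 44.8 and 43.4 RPM in the pruned libraries, against 16.9, 19.2 and 16.0 RPM in the intact libraries. All pruned values were above the intact ones, with the paired-end library, pruned replicate 1, the lowest of its group. The log2 fold change was 1.14 (SE 0.11). Of the 5 genes under that term it was the only higher one.

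Of the remaining listed genes, 3 were lower. Bradi2g59370, named transaldolase, an enzyme of the pentose phosphate pathway, had 827 ± 17.8 RPM in pruned roots and 1244 ± 29.7 RPM in intact roots. Bradi3g13980, named as the iron-sulfur subunit of succinate dehydrogenase, which belongs to both the citrate cycle and the respiratory chain, had 147 ± 2.96 RPM in pruned roots and 227 ± 9.67 RPM in intact roots. Bradi1g07400, named as phosphoglycerate dehydrogenase, which draws on the glycolytic intermediate phosphoglycerate for serine synthesis, had 50.8 ± 2.38 RPM in pruned roots and 77.7 ± 4.02 RPM in intact roots. The log2 fold changes of the 3 genes lay between -0.62 and -0.59. Bradi3g39750, named serine-glyoxylate aminotransferase, an enzyme of photorespiration in leaves, was higher, with 535 ± 7.02 RPM in pruned roots and 277 ± 15.8 RPM in intact roots.

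The wider GO term generation of precursor metabolites and energy holds 8 of the 9 genes and 9 others. Of the 9 others, 4 were lower and 5 higher in pruned roots, and their log2 fold changes ran from -1.86 to 1.26. The lowest was Bradi5g19266, for which no name was paired, with 72.6 ± 1.47 RPM in pruned roots and 264 ± 6.75 RPM in intact roots, 3.64-fold lower. The 8 glycolysis genes of this term were all lower, and its remaining genes were found on both sides. In the term for carbohydrate catabolism, which holds the 9 genes and Bradi1g18650, all 10 were lower. All these genes had been selected on this contrast, so the counts are no result about the terms. Of all genes, 20.2% were called lower and 30.1% were called higher.

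The genes listed beside the 9 glycolysis genes were not chosen on this contrast, and these were tested. For each gene the 2 identifiers before and after it in the table were taken, 36 in all, none of which is among the 9. By limma with Benjamini-Hochberg adjustment over all genes, 11 of the 36 were called lower (30.6%, against 20.2% of all genes) and 8 were called higher (22.2%, against 30.1% of all genes). None was at least 2-fold lower (0 of 36, against 1.72% of all genes). The lowest log2 fold change was -0.69, so this count would be 0 at an unadjusted p as well, and the median was -0.05. These shares moved with the processing. With quantile normalization 14 of the 36 were called lower (25.6% of all genes) and 7 higher (25.7% of all genes), so the balance over all genes depends on the scaling. With read layout as a term 7 of the 36 were called lower (14.3% of all genes), and with 1 identifier on each side, an alternative added after seeing the data, 7 of 18 were called lower.

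The phosphofructokinase Bradi3g22340 and the identifier before its nearest one show the contrast within a short stretch of the list. Bradi3g22330 had 143 ± 1.65 RPM in pruned roots and 144 ± 7.93 RPM in intact roots, with overlapping libraries and a log2 fold change of -0.01 (limma, Benjamini-Hochberg adjusted p = 0.868). Beside Bradi2g05720, the identifier Bradi2g05710 had 203 ± 9.68 RPM in pruned roots and 286 ± 7.84 RPM in intact roots, a log2 fold change of -0.49 (limma, adjusted p = 3.17e-09). Of the 36, 1 was at least 2-fold higher (2.78%, against 2.54% of all genes). This was Bradi2g33270, the identifier before Bradi2g33290 in the table, with 69.9, 66.5 and 67.2 RPM in the pruned libraries, against 6.11, 5.32 and 5.95 RPM in the intact libraries. Its log2 fold change was 3.44 (limma, adjusted p = 6.19e-21), and all pruned values were above the intact ones. These identifiers were singled out after their values were seen, and their distances in the genome were not used here.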

How the data were processed

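Root RNA was measured by RNAseq in 3 pruned and 3 intact libraries. As the methods describe, the authors trimmed reads with SolexaQA and cutadapt, mapped them to the phytozome genome with Tophat and counted uniquely mapped reads per gene. TopHat and HTSeq are named in the submitters' processing notes. A strand setting is not given in the sources used here, so overlapping antisense reads cannot be told apart, and whether unique mapping lost reads of near-identical gene copies was not checked. The deposited values are RPM, which the authors scaled to 1000000 counted reads per library. They are whole multiples of 1 read for 100% of genes (tolerance 0.01 of a read), and dividing by that step gave the reads.

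The comparison of both groups used log2(RPM + 0.5) and the trended eBayes fit of limma 3.58.1 (R 4.3.3). Tests were two-sided, and p-values were adjusted over 19538 genes by Benjamini-Hochberg. A filter at a mean of 0.5 RPM removed no gene, and all 9 genes passed. Each of the 19538 genes in the table had at least 1 RPM in at least 3 libraries. Shares of all genes and library totals are thus over expressed genes of the table and not over the genome. Fold changes on this scale slightly understate those of low genes, and n-fold values are ratios of mean RPM. For 3 against 3 libraries an exact permutation test cannot give a p below 0.1. The limma p-values set the group difference against the spread between these libraries, moderated by a trend over all genes. They rest on that model. The fit was repeated on the reads with edgeR 4.0.16 (quasi-likelihood) and DESeq2 1.42.0, and without the limma trend. Libraries were also rescaled by median ratios or by quantile normalization. Other repeats took a pseudocount of 0.1 or 1, a filter at 5 RPM or none, a 1.5-fold threshold, a replicate block, a term for read layout, or 5 of the 6 libraries. The ratio of mean RPM for DEGs and 1 neighbouring identifier per side were added after seeing the data, as were shares from pruned replicate 1 alone. Sums, shares and plots were made with pandas 2.3.3, numpy 2.4.6 and matplotlib 3.10.9 in Python 3.11.15.

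The 9 genes and the lists were chosen with earlier results of these data known. The genes named are the 9, the other genes of the study's lists of these steps and of pyruvate use, and those singled out as stated. Lists by product name had been planned, but the reference used held no product names, so the study's lists were taken by identifier. Names of 7 of the 9 genes were paired by pathway, chromosome and GO term. Promoter motifs, marker genes, coding lengths and lists without chloroplastic genes were not run for the same reason.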

Additional observations from a re-analysis of the deposited data

How the results depend on the processing

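The 9 log2 fold changes stayed below 0 in all 153 values over 17 alternative settings, from -1.76 to -0.61. Having no filter, a filter at 5 RPM, no limma trend or a replicate block leaves these fold changes as in the main fit. Values from those settings are therefore copies of the main ones. Since each pruned library lay below each intact one, leaving out a library could not turn the sign either. Without a term for read layout, 3 to 4 of the genes were at least 2-fold lower. In each setting without a term for read layout 9 of 9 genes were called lower, beside 17.1% to 25.6% of all genes. With that term the pruned value rests on pruned replicate 1 alone, so calls of the 9 genes are not given for it. Their log2 fold changes were below 0 there as well. The selection on these libraries fixed that the 9 genes differ, and the study had already reported their direction. The median of the 9 genes (-0.95) became -0.89 with quantile normalization. The median of the 11 genes of the glycolysis list (-0.99) became -1.04 with median-ratio scaling, edgeR or DESeq2 and -0.93 with quantile normalization. With each library left out in turn these medians were -0.97 to -0.94 and -1.01 to -0.97. With median-ratio scaling, the ratio of pooled RPM was 0.364 for ATP-dependent phosphofructokinase, 0.480 for the pyrophosphate-dependent enzyme, 0.552 for phosphoglycerate mutase and 0.508 for pyruvate kinase. With each library left out these ratios were 0.368 to 0.381, 0.486 to 0.501, 0.563 to 0.580 and 0.516 to 0.530. Rescaling moved the median log2 fold change of all genes by less than 0.1, but its sign changed. It was 0.04 in the main fit, -0.003 with median-ratio scaling or edgeR, -0.004 with DESeq2 and -0.015 with quantile normalization. The all-gene median set beside the 9 genes thus depends on the scaling. Over all genes, 9830 were called (7356 with read layout as a term to 10141 with a replicate block, 8581 to 9921 with a library left out). Of these, 833 were at least 2-fold different (830 to 849 with a library left out). They numbered 546 after a filter at a mean of 5 RPM, which tests 14859 genes, and 2557 at a threshold of 1.5-fold. Same-numbered pruned and intact libraries deviated together with correlations of -0.026, 0.203 and 0.084. Libraries of unlike number had values from -0.209 to 0.121, the highest for pruned replicate 1 with intact replicate 3. With 3 libraries per group these values cannot decide whether the numbers pair the samples by box. The replicate block gave 836 such genes and changed no call among the 9. Of the 36 neighbouring identifiers, 0 were at least 2-fold lower in limma, edgeR and DESeq2 alike. The shares and ratios without coding length could not be compared with lengths taken into account, and the list without chloroplastic genes was not run. For the lowest gene, Bradi3g59050, 274 reads in 1 library limit the precision.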
